A study of Mus musculus with 6 samples.

Results

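The T and NK cell genes are 38 genes listed by symbol that lymphocytes of these lineages use: the T cell receptor and its CD3 chains, the coreceptors and signalling proteins beside it, and the factors and effectors that tell naive, regulatory, cytotoxic, NK and innate lymphoid cells apart. All 38 were found among the 22183 genes of the deposited table by their symbol, each with its counts in 6 mice, and the rule used symbols, not measured values. The mice were wild-type young adult male C57BL/6J animals. A group of 3 saline mice received daily intraperitoneal saline for 6 weeks, and a group of 3 peritoneal dialysis (PD) mice received a glucose-based PD fluid by the same route and for the same time, which is the study's model of the peritoneal damage of long-term dialysis. RNA came from cells isolated as peritoneal endothelial cells (ECs), by CD31+ magnetic sorting according to the sample labels and by sorting of CD31+ CD45- cells from digested mesentery according to the study's supplementary methods. CD45, encoded by Ptprc, is the surface protein of leukocytes that such a gate removes. The labels do not say whether the mice were treated side by side or on separate days.

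T cells recognise antigen through a receptor of alpha and beta chains, or of gamma and delta chains, which has no signalling part of its own and depends on the CD3 chains and CD247 for it. The kinases LCK and ZAP70 and the adaptor LAT carry the signal inward, and CD28, CTLA4 and PD-1 raise or restrain it. NK cells share the cytotoxic granules of killer T cells but use germline-encoded receptors, and innate lymphoid cells share the lineage factors and cytokines of helper T cells without an antigen receptor. Lymphocytes of all these kinds live in the mesentery, its lymphoid clusters and the peritoneal cavity.

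Counts per mouse totalled 21973426 to 26374292. The members took 0.607% to 0.613% of them in saline mice and 0.518% to 0.525% in PD mice. The label of ECs was checked against marker genes. Pecam1, which encodes CD31, was at 469 ± 19.4 CPM in the saline mice and 514 ± 7.85 CPM in the PD mice (SD, n = 3 mice). CPM is a gene's count relative to its library's size, after scaling by edgeR's trimmed mean of M-values (TMM). Ptprc was at 2373 ± 127 CPM in the saline mice and 1473 ± 63.6 CPM in the PD mice. Per transcript length, in the deposited FPKM, Pecam1 averaged 145 in saline mice and 158 in PD mice, and Ptprc 624 and 392, so the leukocyte transcript was above that of CD31 in both groups. Summed over 12 endothelial genes the level was 1145 to 1159 CPM in the saline mice and 1827 to 1905 CPM in the PD mice, and summed over 12 pan-leukocyte genes it was 11766 to 12202 CPM in the saline mice and 9457 to 9578 CPM in the PD mice. A gene is called, here and below, where edgeR's quasi-likelihood F test gave a Benjamini-Hochberg adjusted p under 0.05. Among the endothelial genes 11 of 12 rose, and among the pan-leukocyte genes 9 of 12 fell and 1 rose. The B cell genes summed to 7154 to 7445 CPM in the saline mice and 3368 to 3412 CPM in the PD mice, and 10 of 10 fell. The macrophage genes summed to 2618 to 2766 CPM in the saline mice and 10596 to 11446 CPM in the PD mice, and 10 of 10 rose. In the other lists 1 of 6 plasma cell genes fell and 4 rose, 5 of 7 dendritic cell genes rose, 5 of 6 neutrophil genes rose, 7 of 8 mast cell genes rose, 6 of 6 mesothelial genes rose, 6 of 6 fibroblast genes rose, 6 of 6 pericyte and smooth muscle genes rose and 8 of 8 pancreatic acinar genes rose. The acinar genes summed to 2.15 to 5.35 CPM in the saline mice and 6074.5 to 6977 CPM in the PD mice. Mesothelial genes summed to 13.5 to 17.2 CPM in the saline mice and 147 to 172 CPM in the PD mice. For fibroblast genes the sums were 86.6 to 93.0 CPM in the saline mice and 808 to 836 CPM in the PD mice. For neutrophil genes they were 18.3 to 21.2 CPM in the saline mice and 215 to 232 CPM in the PD mice. No listed marker was at 0 in all mice of either group. The part of these other cells in the members' values was not tested, and in bulk samples fewer cells of a type and less RNA per cell cannot be told apart.

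Because both leukocyte and endothelial transcripts moved, each member was also measured against other yardsticks. Scaling the libraries to the 12 endothelial genes moved the median of all genes by -0.97 on the log2 scale, and scaling to the 12 pan-leukocyte genes moved it by 0.30. Directions below are given for TMM scaling, with counts or values under the other scalings beside them. The endothelial yardstick asks how a gene moved per EC transcript, and the pan-leukocyte yardstick how it moved per leukocyte transcript. The genes of a yardstick did not move alike. With TMM scaling the log2 fold changes of the endothelial genes ran from 0.13 to 1.65. Those of the pan-leukocyte genes ran from -0.69 to 0.31. B cell genes fell and macrophage genes rose, so the leukocyte transcripts also changed in their make-up.

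The members did not move as a block. With TMM scaling 14 of 38 fell in PD mice and 9 rose, against 33 that fell and 2 that rose under endothelial scaling and 5 that fell and 21 that rose under pan-leukocyte scaling. Over all 14005 genes tested, 27.8% were called lower and 31.1% higher with TMM scaling, beside 36.8% and 23.7% of the members. Whether these shares differ was not tested. Under endothelial scaling 72.1% of all genes were lower and 8.33% higher, beside 86.8% and 5.26% of the members. Under pan-leukocyte scaling 8.23% were lower and 49.3% higher, beside 13.2% and 55.3% of the members. All members passed edgeR's filter on low counts. In 15 members every PD mouse was below every saline mouse, where 31.6% of all genes tested did the same, and in 12 every PD mouse was above, where 34.0% did. The median log2 fold change of the members, PD minus saline, was 0.047, beside 0.017 over all genes tested, and member values ran from -0.70 for Cd2 to 1.66 for Pdcd1. Genes of the T cell receptor, its signalling and the naive state made up 12 of the 14 that fell and none of the 9 that rose with TMM scaling, the last of which were receptors, effectors and factors of activated, cytotoxic, NK and innate lymphoid cells. With endothelial scaling all 18 genes of these 3 groups fell. With pan-leukocyte scaling 5 of the 12 were still called lower (Trbc1, Trbc2, Cd2, Tcf7 and Lef1), the other 7 had no call, and the 6 genes of these groups without a call under TMM rose.

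**Figure D1:**
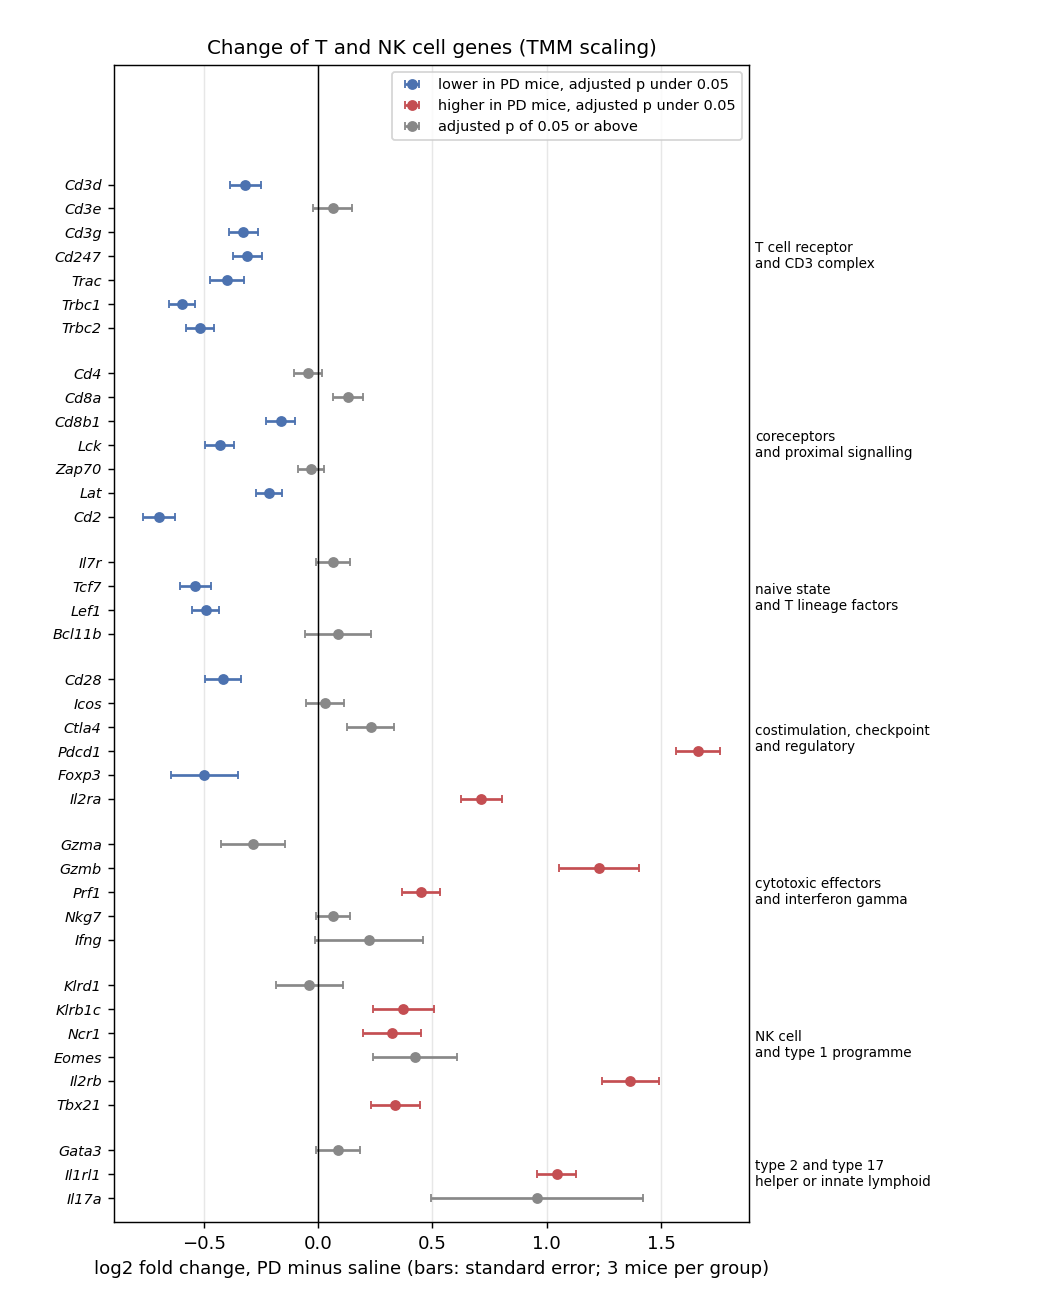
Log2 fold change of each of the 38 members, PD minus saline, on the horizontal axis with TMM scaling; each point is a gene with its standard error as a bar, grouped by role and coloured by the edgeR call at an adjusted p under 0.05. The called points run from -0.70 for Cd2 to 1.66 for Pdcd1; 33 members are lower under endothelial scaling and 21 higher under pan-leukocyte scaling.

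Per transcript length, the 2 most abundant members were constant regions of the T cell receptor chains. The deposited FPKM values, which scale fragments to transcript length and library depth, were 605 ± 25.1 FPKM in saline mice and 426 ± 4.47 FPKM in PD mice for Trbc2 (SD, n = 3), a beta chain constant region. Trac, the alpha chain constant region, stood next at 539.8 ± 31.1 FPKM in saline mice and 416 ± 25.8 FPKM in PD mice, and in PD mice the 2 did not differ beyond their spread. In saline mice Lck followed at 449 ± 11.2 FPKM, and was in turn followed by Cd2, Trbc1 and Lat, whose means in saline mice of 393 ± 14.02, 391 ± 10.1 and 390.2 ± 13.5 FPKM did not differ beyond their spread. In PD mice the third place was held by Nkg7 at 360.0 ± 26.1 FPKM, before Lat at 343 ± 5.48 and Lck at 335 ± 11.7 FPKM, and these 3 did not differ beyond their spread. At the low end stood Il17a at 0.400 ± 0.224 FPKM in saline mice and 0.791 ± 0.173 FPKM in PD mice and Eomes at 1.33 ± 0.145 FPKM in saline mice and 1.83 ± 0.345 FPKM in PD mice. The plot of levels by mouse shows the same range on the CPM scale, on which levels of different genes are not corrected for length.

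**Figure D2:**
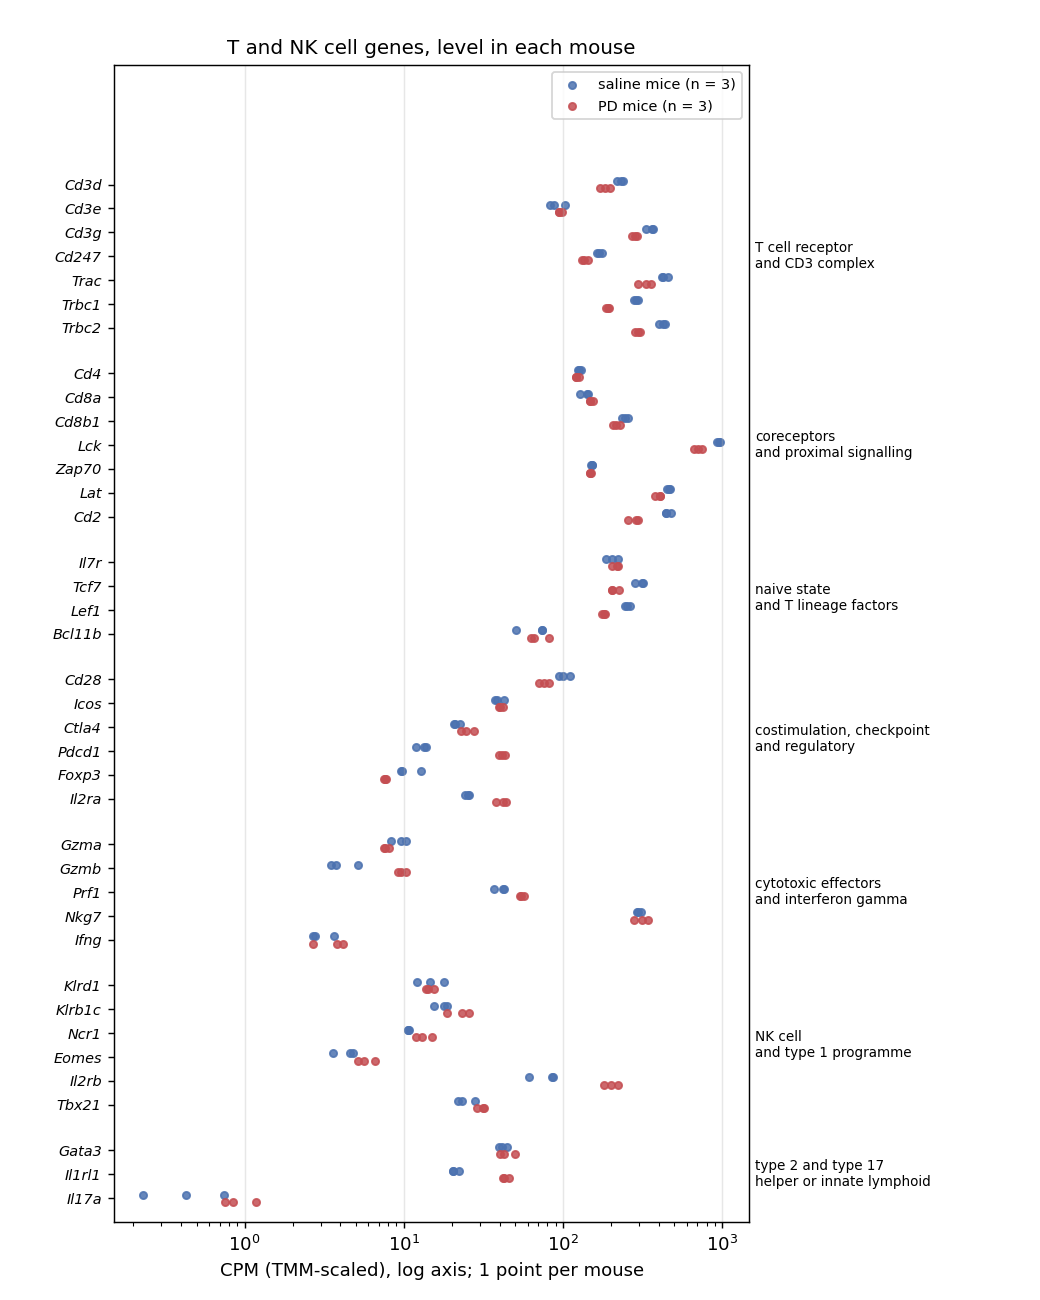
Level of each member in each mouse in TMM-scaled CPM on a log axis, with blue points for the 3 saline mice and red points for the 3 PD mice, grouped by role. The red points lie left of the blue for the receptor chains Cd3d, Trac, Trbc1 and Trbc2 and right of them for Pdcd1, Il2rb, Gzmb and Il1rl1; under pan-leukocyte scaling 5 members are lower and 21 higher.

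In the T cell receptor complex all chains but Cd3e fell: of 7 genes 6 fell with TMM scaling, 7 with endothelial scaling and 2 with pan-leukocyte scaling, under which 1 rose; the median log2 fold change with TMM scaling was -0.33. Trac (chr14:54220521-54224206, plus strand, GRCm38) was at 419, 459 and 425 CPM in the saline mice and 297, 333 and 358 CPM in the PD mice. Every PD mouse was below every saline mouse, and the log2 fold change was -0.40 (SE 0.075, adjusted p = 0.000996). Trbc2 (chr6:41546730-41548352, plus strand) was at 437, 423 and 400.2 CPM in the saline mice and 282, 296 and 303 CPM in the PD mice, a log2 fold change of -0.52 (SE 0.061, adjusted p = 3.81e-05) with groups apart. Trbc1, the other beta chain constant region, was at 296, 289.8 and 281 CPM in the saline mice and 188, 191 and 196 CPM in the PD mice, with groups apart and a log2 fold change of -0.60 (SE 0.057, adjusted p = 7.96e-06). Trbc1 and Trbc2 are nearly identical in sequence, so how reads were split between them is uncertain, although both moved alike, and they stayed lower with pan-leukocyte scaling, at -0.30 and -0.22.

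Among the CD3 chains, which carry the signal of the receptor, Cd3d was at 231, 237 and 218 CPM in the saline mice and 171, 183 and 197 CPM in the PD mice. The PD mice were all below the saline mice, and its log2 fold change was -0.32 (SE 0.069, adjusted p = 0.00236). Cd3g, its neighbour on chromosome 9, was at 363, 366 and 333 CPM in the saline mice and 270.0, 282 and 294 CPM in the PD mice, with groups apart and a log2 fold change of -0.33 (SE 0.063, adjusted p = 0.00114). Cd247, the zeta chain that NK cells also use, was at 177, 169 and 163 CPM in the saline mice and 132, 135 and 143 CPM in the PD mice, again apart, with a log2 fold change of -0.31 (SE 0.063, adjusted p = 0.00168); 3007 of its 5329 exon bases overlap exons of Pou2f1 on the other strand, and the library kit named in the labels does not mark strand, so reads there cannot be assigned. With pan-leukocyte scaling these 3 stood between -0.033 and -0.014, none past the test. Cd3e, the epsilon chain of the same complex, was at 88.4, 83.5 and 104 CPM in the saline mice and 98.9, 94.2 and 94.7 CPM in the PD mice. Its groups overlapped, since saline replicate 3 was the highest of the 6 mice, and its log2 fold change was 0.063 (SE 0.084, adjusted p = 0.539), which was -0.91 under endothelial scaling and 0.36 under pan-leukocyte scaling.

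Cd3d and Cd3g lie head to head, and the stretches just before their starts are shown because both genes fell, beside those of Gzmb and Pdcd1, which rose. Those shown are the 2 called members with the lowest and the 2 with the highest fold change among those with a single RefSeq promoter window, chosen after the values were seen (chr9:44981686-44981785, plus strand for Cd3d, chr9:44980432-44980531, minus strand for Cd3g, chr14:56262335-56262434, minus strand for Gzmb and chr1:94052554-94052653, minus strand for Pdcd1, RefSeq, GRCm38.p6). Each line gives the 100 bases before the start of the gene, 5′ to 3′, with matches on either strand in capitals to short motifs of 5 factor families (RUNX, GATA, ETS, TCF/LEF and AP-1), whose letters are spelled out after them.
Cd3g: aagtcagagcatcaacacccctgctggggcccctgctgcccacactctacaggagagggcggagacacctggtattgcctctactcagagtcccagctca
Cd3d: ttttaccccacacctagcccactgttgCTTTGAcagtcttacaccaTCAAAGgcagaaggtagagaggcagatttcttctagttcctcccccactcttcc
Gzmb: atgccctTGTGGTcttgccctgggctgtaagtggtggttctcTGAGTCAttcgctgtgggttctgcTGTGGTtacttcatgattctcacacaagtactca
Pdcd1: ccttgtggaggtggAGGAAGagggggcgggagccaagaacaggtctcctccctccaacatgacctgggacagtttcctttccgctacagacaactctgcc
Cd3d held the TCF/LEF letters 73 and 54 bases before its start, on opposite strands. Gzmb held the RUNX letters 93 and 34 bases before its start, with the AP-1 letters between them at 58, and Pdcd1 held the ETS letters at 86. No motif of the 5 was in the window shown for Cd3g.

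Across the 28 members with a RefSeq window, 250 bases before the start were searched on both strands. Some genes have more than 1 window, and a gene was counted where any of its windows held the letters. The 8 members that fell had 14 windows, the 8 that rose 10, the 12 that did not pass 14, and all 27025 genes 32851. The RUNX letters, TGTGGT, were in 1 of 8 members that fell, 5 of 8 that rose, 4 of 12 that did not pass and 15.9% of all 27025 genes with a window. The members that rose and held them were Gzmb, Il1rl1, Klrb1c, Ncr1 and Prf1, and the member that fell was Lck. The ETS letters, AGGAAG, were in 6 of 8 members that fell, 5 of 8 that rose, 5 of 12 that did not pass and 32.3% of all 27025 genes with a window. The TCF/LEF letters, CTTTGA, read by the factors that Tcf7 and Lef1 encode, were in 2 of 8 members that fell, 0 of 8 that rose, 2 of 12 that did not pass and 15.8% of all 27025 genes with a window, the first being Cd3d and Lef1. The GATA letters, AGATAA, were in 2 of 8 members that fell, 1 of 8 that rose, 0 of 12 that did not pass and 11.4% of all 27025 genes with a window. Those of AP-1, TGACTCA, were in 0 of 8 members that fell, 1 of 8 that rose, 0 of 12 that did not pass and 5.16% of all 27025 genes with a window. A match describes the letters in the window only.

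The coreceptors and proximal signalling genes divided between those that fell and those that did not pass the test. Of 7, 4 fell with TMM scaling, all 7 with endothelial scaling, and 1 with pan-leukocyte scaling, under which 3 rose. Their median log2 fold change with TMM scaling was -0.16. Cd2, an adhesion receptor of T and NK cells, showed the lowest fold change of any member. It was at 443, 478 and 443 CPM in the saline mice and 258, 287 and 297 CPM in the PD mice, and every PD mouse was below every saline mouse. Its log2 fold change was -0.70 (SE 0.069, adjusted p = 9.93e-06), and it remained lower with pan-leukocyte scaling at -0.40. B cell genes fell as well, as given above, and their part in the Cd2 value was not tested. Lck, the kinase that starts receptor signalling, was at 928, 961 and 970.1 CPM in the saline mice and 663, 709 and 749 CPM in the PD mice, with groups apart and a log2 fold change of -0.43 (SE 0.063, adjusted p = 0.000184). Lat, the scaffold on which signalling proteins assemble, was at 473, 450.2 and 463 CPM in the saline mice and 380.2, 405 and 409 CPM in the PD mice. The groups did not overlap, its log2 fold change was -0.22 (SE 0.058, adjusted p = 0.00837), and without saline replicate 1 it was -0.19 with an edgeR adjusted p of 0.0527. With pan-leukocyte scaling Lck stood at -0.14 and Lat at 0.081.

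Zap70, the kinase that acts after LCK, was at 153, 153 and 149.7 CPM in the saline mice and 148, 149 and 149.8 CPM in the PD mice, and its log2 fold change of -0.031 (SE 0.057, adjusted p = 0.662) did not pass the test, the groups overlapping. Cd4, the coreceptor of helper T cells, was at 131, 126 and 124 CPM in the saline mice and 127, 121 and 122 CPM in the PD mice, and its groups overlapped with a log2 fold change of -0.044 (SE 0.061, adjusted p = 0.557). The chains of the CD8 coreceptor of killer T cells had values of opposite sign. Cd8a was at 141, 143 and 128 CPM in the saline mice and 148, 148 and 154 CPM in the PD mice; every PD mouse was above every saline mouse, but the log2 fold change of 0.13 (SE 0.065, adjusted p = 0.109) missed the threshold. Cd8b1, its partner in the heterodimer, was at 244, 255 and 234 CPM in the saline mice and 208, 217 and 229.8 CPM in the PD mice, with every PD mouse below every saline mouse and a log2 fold change of -0.16 (SE 0.064, adjusted p = 0.0443). That call was close to the threshold: without saline replicate 1, saline replicate 2, PD replicate 1 or PD replicate 2 the value was -0.16 to -0.13 with edgeR adjusted p from 0.0872 to 0.145, and without the low-count filter the edgeR adjusted p was 0.0578. With endothelial scaling the pair was at -0.84 and -1.14, and with pan-leukocyte scaling at 0.42 and 0.13.

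Tcf7 and Lef1, which encode paired transcription factors of naive and memory T cells, fell, as 2 of 4 genes did with TMM scaling, 4 with endothelial scaling and 2 with pan-leukocyte scaling, under which the other 2 rose. The median log2 fold change of this group with TMM scaling was -0.21. Tcf7 was at 317, 283 and 314 CPM in the saline mice and 224, 204 and 203 CPM in the PD mice. The PD mice were all below the saline mice, and the log2 fold change was -0.54 (SE 0.068, adjusted p = 6.78e-05). Lef1 was at 247, 251 and 263 CPM in the saline mice and 175, 182 and 184 CPM in the PD mice, a log2 fold change of -0.49 (SE 0.058, adjusted p = 3.90e-05) with groups apart; 1208 of its 8788 exon bases overlap Gm43352 on the other strand. Under pan-leukocyte scaling the pair stood at -0.24 and -0.20, still called lower. Il7r, the receptor for the survival cytokine interleukin 7 on naive and memory T cells and on innate lymphoid cells, was at 203, 223 and 187 CPM in the saline mice and 202, 221 and 219 CPM in the PD mice. Its groups overlapped and the log2 fold change was 0.066 (SE 0.074, adjusted p = 0.462). Bcl11b, a factor that commits cells to the T lineage, was at 73.8, 50.6 and 73.8 CPM in the saline mice and 82.1, 65.5 and 62.8 CPM in the PD mice, saline replicate 2 being the lowest of the 6 mice. Its log2 fold change was 0.086 (SE 0.14, adjusted p = 0.631), which turned to -0.071 without saline replicate 2 and to -0.045 without PD replicate 1.

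The costimulation, checkpoint and regulatory genes moved both ways, and held the largest rise of all members. With TMM scaling 2 of 6 fell and 2 rose, with endothelial scaling 5 fell and 1 rose, and with pan-leukocyte scaling 4 rose. The median log2 fold change with TMM scaling was 0.13. Pdcd1 (chr1:94038305-94052553, minus strand) encodes PD-1, an inhibitory receptor that T cells display after activation. It was at 11.99, 13.4 and 13.8 CPM in the saline mice and 42.97, 41.1 and 39.9 CPM in the PD mice, so that the lowest PD mouse stood far above the highest saline mouse. The log2 fold change was 1.66 (SE 0.095, adjusted p = 1.21e-07), a 3.17-fold rise, and it was 0.69 under endothelial scaling and 1.96 under pan-leukocyte scaling. As given above, genes of macrophages and other cells rose too, and their part in the Pdcd1 value was not tested. Il2ra, the high-affinity interleukin 2 receptor chain of regulatory and activated T cells, was at 24.1, 25.4 and 25.7 CPM in the saline mice and 37.9, 41.8 and 43.8 CPM in the PD mice. Its groups were apart with a log2 fold change of 0.71 (SE 0.089, adjusted p = 5.66e-05), which was -0.25 under endothelial scaling and 1.01 under pan-leukocyte scaling.

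Foxp3, the lineage factor of regulatory T cells, fell while Il2ra rose with TMM scaling, although both were lower with endothelial scaling. It was at 12.8, 9.64 and 9.77 CPM in the saline mice and 7.54, 7.72 and 7.57 CPM in the PD mice, and saline replicate 1 was the highest of the 6 mice. The log2 fold change was -0.50 (SE 0.15, adjusted p = 0.0141), every PD mouse being below every saline mouse, and without saline replicate 1 it was -0.35 with an edgeR adjusted p of 0.0755. Foxp3 overlaps Flicr, a non-coding gene on the same strand, by 853 of its 4577 exon bases. On the other strand its exons overlap those of Ccdc22 by 590 bases, Gm36995 by 373 and Ppp1r3f by 266. As the library kit does not mark strand, reads in these overlaps cannot be assigned. Cd28, the main costimulatory receptor of T cells, was at 99.7, 110.0 and 95.1 CPM in the saline mice and 70.97, 75.98 and 81.6 CPM in the PD mice. Its groups did not overlap and the log2 fold change was -0.42 (SE 0.080, adjusted p = 0.00115). Ctla4, the inhibitory receptor that competes with CD28 and is abundant on regulatory T cells, was at 20.7, 22.6 and 20.99 CPM in the saline mice and 24.7, 27.8 and 22.8 CPM in the PD mice; every PD mouse was above every saline mouse, but the log2 fold change of 0.23 (SE 0.10, adjusted p = 0.0753) missed the threshold, and without PD replicate 3 it was 0.30 with an edgeR adjusted p of 0.0399. Icos, a CD28 relative on activated T cells, was at 38.8, 42.9 and 37.5 CPM in the saline mice and 40.2, 41.98 and 39.6 CPM in the PD mice, with overlap and a log2 fold change of 0.031 (SE 0.083, adjusted p = 0.765), which was -0.013 without saline replicate 3. Under pan-leukocyte scaling Foxp3 stood at -0.20 and Cd28 at -0.12, neither called.

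Among the cytotoxic effectors the granule genes Gzmb and Prf1 rose, unless scaled to the endothelial genes, and Gzma did not pass the test. With TMM scaling 2 of 5 genes rose and the others did not pass, with endothelial scaling 4 fell, and with pan-leukocyte scaling 3 rose. Their median log2 fold change with TMM scaling was 0.22. Gzmb, a granzyme of activated killer T and NK cells, was at 5.15, 3.50 and 3.73 CPM in the saline mice and 10.3, 9.64 and 9.15 CPM in the PD mice. The groups were apart at these low levels, and the log2 fold change was 1.23 (SE 0.18, adjusted p = 0.000157), or 0.26 under endothelial scaling and 1.53 under pan-leukocyte scaling. Prf1, the pore former perforin, was at 42.5, 36.7 and 41.9 CPM in the saline mice and 53.6, 57.1 and 54.8 CPM in the PD mice, also apart, with a log2 fold change of 0.45 (SE 0.082, adjusted p = 0.000832), or -0.52 under endothelial scaling and 0.75 under pan-leukocyte scaling. Gzma, another granzyme, was at 9.61, 10.3 and 8.32 CPM in the saline mice and 7.58, 7.46 and 8.11 CPM in the PD mice. Every PD mouse was below every saline mouse, but its log2 fold change of -0.28 (SE 0.14, adjusted p = 0.0996) did not pass the test. Nkg7, a granule membrane protein of killer cells, was at 291, 309 and 294 CPM in the saline mice and 280.2, 314 and 341 CPM in the PD mice, with overlap and a log2 fold change of 0.065 (SE 0.075, adjusted p = 0.473). Ifng, the cytokine interferon gamma, was counted by 93, 58 and 67 reads in the saline mice and 73, 91 and 92 reads in the PD mice, with overlap and a log2 fold change of 0.22 (SE 0.24, adjusted p = 0.437); 336 of its 1295 exon bases overlap Gm49751 on the same strand.

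Genes of NK cells and of the type 1 programme held the largest share of rises of any group of members with TMM scaling, 4 of 6, where 31.1% of all genes tested rose. With endothelial scaling 5 fell and 1 rose, and with pan-leukocyte scaling 5 rose. Their median log2 fold change with TMM scaling was 0.36, and Il2rb stood furthest out. Without saline replicate 1, or without PD replicate 2, only Il2rb of this group kept its call, and the share was then not the largest. Il2rb, the receptor chain through which NK and memory T cells receive interleukin 2 and interleukin 15, was at 84.98, 61.5 and 87.2 CPM in the saline mice and 222, 199.6 and 181 CPM in the PD mice. The PD mice all stood more than 2-fold above the highest saline mouse. The log2 fold change was 1.37 (SE 0.12, adjusted p = 5.22e-06), a 2.58-fold rise, and it was 0.40 under endothelial scaling and 1.66 under pan-leukocyte scaling.

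The markers that define NK cells had smaller fold changes. Klrb1c, which encodes the NK1.1 antigen, was at 15.4, 18.7 and 18.01 CPM in the saline mice and 18.6, 23.3 and 25.6 CPM in the PD mice. The groups overlapped at PD replicate 1, and the log2 fold change was 0.37 (SE 0.13, adjusted p = 0.0328). Without saline replicate 1, saline replicate 3, PD replicate 2 or PD replicate 3 it was 0.28 to 0.40 with edgeR adjusted p from 0.0535 to 0.121. Klrb1c is one of a family of close relatives and shares 413 of its 2961 exon bases with Gm44511 on the same strand, so its reads are uncertain. The Klrb1c value was -0.60 under endothelial scaling and 0.67 under pan-leukocyte scaling. Ncr1, the activating receptor NKp46 that is nearly confined to NK cells and type 1 innate lymphoid cells, was at 10.8, 10.7 and 10.6 CPM in the saline mice and 13.1, 15.01 and 11.9 CPM in the PD mice, all PD mice being higher. Its log2 fold change was 0.32 (SE 0.13, adjusted p = 0.0467), and without saline replicate 1, saline replicate 2, saline replicate 3, PD replicate 1 or PD replicate 2 it was 0.24 to 0.33 with edgeR adjusted p from 0.0767 to 0.191. DESeq2 gave Ncr1 an adjusted p of 0.0798, and edgeR with DESeq2 size factors or without the low-count filter gave 0.0532 and 0.0602. The value of Ncr1 was -0.65 under endothelial scaling and 0.62 under pan-leukocyte scaling. Klrd1, the CD94 chain of NK receptors, was at 14.5, 17.99 and 12.2 CPM in the saline mice and 13.9, 14.2 and 15.4 CPM in the PD mice, with overlap and a log2 fold change of -0.038 (SE 0.15, adjusted p = 0.839), which was 0.12 without saline replicate 2.

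Both T-box factors that drive NK cells and type 1 lymphocytes were higher in every PD mouse. Tbx21, which encodes T-bet, was at 23.3, 21.8 and 27.9 CPM in the saline mice and 31.3, 32.1 and 28.9 CPM in the PD mice. Its log2 fold change was 0.34 (SE 0.11, adjusted p = 0.0196), and without saline replicate 1, saline replicate 2, PD replicate 1 or PD replicate 2 it was 0.27 to 0.32 with edgeR adjusted p from 0.0544 to 0.0720. Eomes, its relative in mature NK cells and memory killer T cells, was at 4.76, 3.60 and 4.60 CPM in the saline mice and 6.62, 5.16 and 5.62 CPM in the PD mice, and the log2 fold change of 0.42 (SE 0.18, adjusted p = 0.0677) missed the threshold. With endothelial scaling the 2 genes stood at -0.63 and -0.54, and with pan-leukocyte scaling at 0.63 and 0.72.

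Of the 3 type 2 and type 17 genes, 1 rose with TMM scaling, 1 fell with endothelial scaling and 3 rose with pan-leukocyte scaling. Their median log2 fold change with TMM scaling was 0.96. Il1rl1 encodes ST2, the receptor for interleukin 33 on type 2 innate lymphoid cells, helper T cells, regulatory T cells of tissues and mast cells. It was at 20.5, 22.2 and 20.5 CPM in the saline mice and 42.4, 42.1 and 45.7 CPM in the PD mice, with the groups far apart. The log2 fold change was 1.04 (SE 0.086, adjusted p = 2.47e-06), and it was 0.072 under endothelial scaling and 1.34 under pan-leukocyte scaling. The mast cell genes, whose cells also carry ST2, were at 248 to 256 CPM in the saline mice and 388 to 438 CPM in the PD mice in sum, and their part in the Il1rl1 value was not tested. Gata3, the factor of type 2 lymphocytes, was at 44.8, 39.6 and 41.2 CPM in the saline mice and 40.4, 42.9 and 50.1 CPM in the PD mice. Its groups overlapped, and the log2 fold change was 0.086 (SE 0.097, adjusted p = 0.464), which was -0.0015 without PD replicate 3. Il17a, the type 17 cytokine made by helper, gamma-delta and innate lymphoid cells, was counted by 11, 5 and 18 reads in the saline mice and 23, 18 and 26 reads in the PD mice. Every PD mouse was higher in CPM, and the log2 fold change of 0.96 (SE 0.46, adjusted p = 0.0965) missed the threshold, while without saline replicate 3 it was 1.44 with an edgeR adjusted p of 0.0404.

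Set side by side, the 3 scalings left few members with a call in the same direction under each yardstick. Trbc1, Trbc2, Cd2, Tcf7 and Lef1 were called lower under each of them, and Pdcd1 and Il2rb were called higher under each. For the other 31 members the call was lost or the sign turned under at least 1 scaling, or no call was made. A lost call was not always a turned sign. Cd3d, Cd3g, Cd247, Trac, Lck, Cd28 and Foxp3 had negative values under each scaling. They were called lower with TMM and endothelial scaling but not with pan-leukocyte scaling, where values ran from -0.20 for Foxp3 to -0.014 for Cd247. Gzmb and Il1rl1 kept a positive value with endothelial scaling, 0.26 and 0.072, but without a call.

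**Figure D3:**
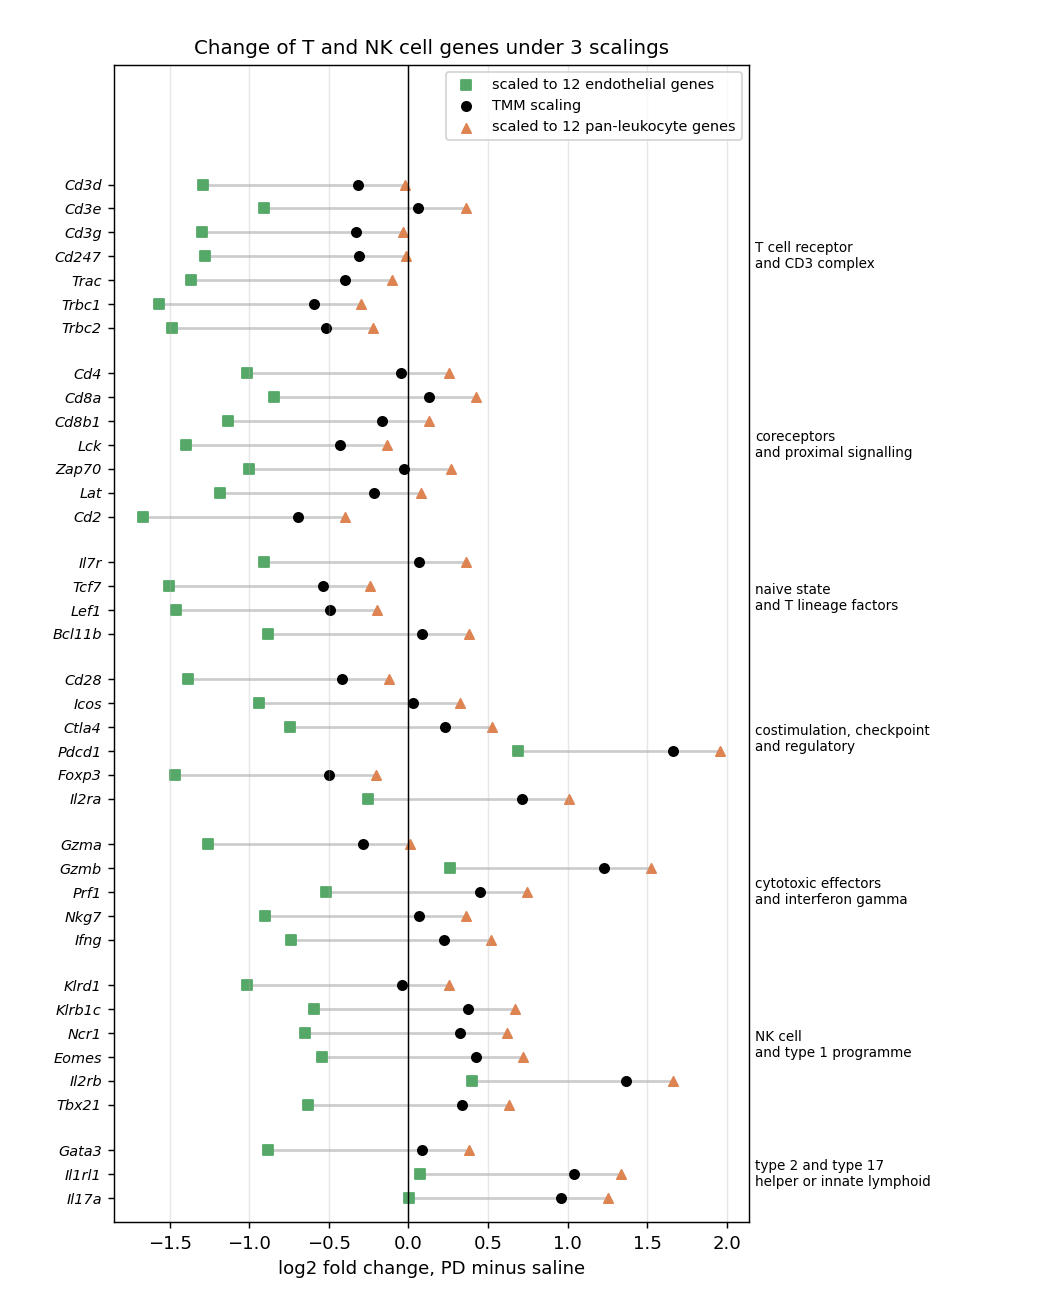
Log2 fold change of each member, PD minus saline, with libraries scaled by TMM (black circles), to 12 endothelial genes (green squares) and to 12 pan-leukocyte genes (orange triangles). Pdcd1 and Il2rb lie right of 0 under all 3 scalings with an adjusted p under 0.05, Trbc1, Trbc2, Cd2, Tcf7 and Lef1 left of 0, and Cd3e runs from -0.91 to 0.36.

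Ratios within a mouse do not depend on library scaling, apart from the small constant added to each level. In 8 ratios, each the log2 of the CPM of a gene plus 0.5 over that of another plus 0.5, naive, regulatory, cytotoxic, NK and type 2 genes were set against Cd3e, the receptor chain, and Cd3e against the leukocyte gene Ptprc and the B cell gene Cd79a. The 2-sided exact permutation test over 3 against 3 mice cannot give a p under 0.1, and no ratio could therefore pass 0.05. Cd3e was the only 1 of 7 chains of the receptor complex that did not fall with TMM scaling, so the differences depend on it as the reference, and they were computed again with the mean log2 level of the other 6 chains in its place, an alternative chosen after the data were seen.

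The ratio of Cd3e to Ptprc was -4.69 ± 0.22 in saline mice and -3.93 ± 0.098 in PD mice (SD, n = 3) (difference 0.76, exact permutation p = 0.1, adjusted 0.2), and every PD mouse was higher. Cd3e against Cd79a showed a larger gap, at -4.48 ± 0.20 in saline mice and -3.21 ± 0.041 in PD mice (difference 1.27, exact permutation p = 0.1, adjusted 0.2). Every PD mouse was above every saline mouse in this ratio too. Foxp3 to Cd3e was at -3.05 ± 0.30 in saline mice and -3.57 ± 0.051 in PD mice, and every PD mouse was lower (difference -0.53, exact permutation p = 0.1, adjusted 0.2). Il1rl1 to Cd3e was at -2.09 ± 0.21 in saline mice and -1.14 ± 0.085 in PD mice, with every PD mouse higher (difference 0.96, exact permutation p = 0.1, adjusted 0.2). The other 4 ratios overlapped between the groups. Gzma to Cd3e was at -3.22 ± 0.31 in saline mice and -3.55 ± 0.078 in PD mice (difference -0.33, exact permutation p = 0.2, adjusted 0.267). For Ncr1 to Cd3e the values were -3.04 ± 0.17 in saline mice and -2.81 ± 0.17 in PD mice (difference 0.23, exact permutation p = 0.2, adjusted 0.267). Il7r to Cd3e and Gata3 to Cd3e lay close together in the groups, with differences of 6.96e-05 and 0.014 and exact permutation p of 1 and 0.9.

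**Figure D4:**
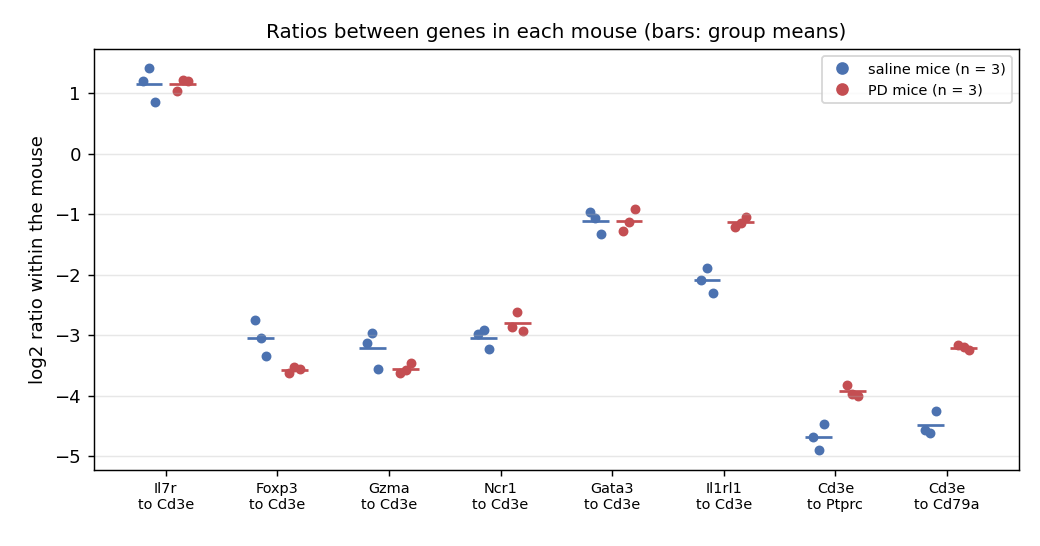
Within-mouse log2 ratio of 8 gene pairs, with points for single mice (blue saline, red PD, n = 3 each) and a bar at each group mean. The groups are apart for Foxp3 to Cd3e, which is lower in PD mice, and for Il1rl1 to Cd3e, Cd3e to Ptprc and Cd3e to Cd79a, which are higher, at the smallest p of 0.1 that the design allows; with the other 6 receptor chains in place of Cd3e the Foxp3 groups overlap.

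With the other 6 chains in place of Cd3e, the difference for Foxp3 shrank to -0.047 with overlapping groups, and it ran from -0.15 with Cd247 alone to 0.14 with Trbc1 alone. That for Gzma turned to 0.15, with every PD mouse higher. Against the same chains Il7r, Gata3, Ncr1 and Il1rl1 had differences of 0.48, 0.49, 0.71 and 1.44, each with every PD mouse higher. The chains themselves against Ptprc and Cd79a differed by 0.28 and 0.80, again higher in every PD mouse, and against Ptprc the difference ran from 0.094 with Trbc1 alone to 0.38 with Cd247 alone.

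Another 105 gene symbols, of the same cells and of ligands for their receptors, were listed beside the members. Of these, 101 were in the deposited table and 99 were tested. Some are shared with other cells, as given below for Fcgr3 and Ccr6. With TMM scaling 27 fell and 51 rose, with endothelial scaling 64 fell and 11 rose, and with pan-leukocyte scaling 9 fell and 62 rose. The share that fell with TMM scaling, 27.3%, was close to the 27.8% of all genes, and the share that rose, 51.5%, was above the 31.1%. The 64.6% lower under endothelial scaling stood below the 72.1% of all genes, and the 62.6% higher under pan-leukocyte scaling above the 49.3%. Whether these shares differ was not tested, and the list was chosen with earlier results of these data known. The median log2 fold change of the listed genes with TMM scaling was 0.37, beside 0.017 for all genes tested. Of the genes of T cell receptor signalling 9 of 16 fell and 2 rose, against 15 and 0 with endothelial and 3 and 7 with pan-leukocyte scaling. Of the surface and costimulation genes 8 of 16 fell and 4 rose, against 14 and 0 with endothelial and 2 and 5 with pan-leukocyte scaling.

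Of the NK receptors 1 of 18 fell and 14 rose, against 10 and 2 with endothelial and 0 and 14 with pan-leukocyte scaling. The 2 called higher with endothelial scaling were Fcgr3 at 1.22 and Tyrobp at 0.38. Macrophage genes rose as well, as given above, and their part in these values was not tested. Among the cytotoxic effectors 0 of 8 fell and 5 rose, against 6 and 0 with endothelial and 0 and 7 with pan-leukocyte scaling. Gamma-delta T cell receptor constant genes rose in 4 of 4 with TMM and pan-leukocyte scaling and in 2 with endothelial scaling. In the list of transcription factors 5 of 12 fell and 7 rose, against 7 and 2 with endothelial and 1 and 7 with pan-leukocyte scaling, and in that of chemokine receptors 2 of 8 fell and 5 rose, against 5 and 1 with endothelial and 2 and 6 with pan-leukocyte scaling. For type 2 and type 17 cytokines and receptors 1 of 9 fell and 5 rose, against 2 and 3 with endothelial and 0 and 6 with pan-leukocyte scaling. Of interleukin 2 family genes 1 of 8 fell and 5 rose, against 5 and 1 with endothelial and 1 and 6 with pan-leukocyte scaling.

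The largest rise of the listed genes at a mean of at least 1 CPM was that of Zbtb16, the factor PLZF of innate-like T cells and innate lymphoid precursors. It was at 1.84, 0.968 and 1.66 CPM in the saline mice and 11.04, 7.21 and 7.57 CPM in the PD mice, a log2 fold change of 2.52 (SE 0.26, adjusted p = 1.47e-05). Sox13, a factor of gamma-delta T cells, was at 6.56 ± 2.56 CPM in the saline mice and 24.6 ± 7.20 CPM in the PD mice with a log2 fold change of 1.90 (SE 0.28, adjusted p = 0.000171). Il17rb, a receptor for interleukin 25 on type 2 innate lymphoid and innate-like T cells, was at 1.64 ± 0.304 CPM in the saline mice and 5.41 ± 0.222 CPM in the PD mice with a log2 fold change of 1.71 (SE 0.21, adjusted p = 5.00e-05). These genes were listed for their use in innate-like lymphocytes. Endothelial, mesothelial and fibroblast genes rose as well, as given above, and their part in these values was not tested. Il7, the ligand of the Il7r product, which stromal and lymphatic cells make, was at 2.73, 3.23 and 3.11 CPM in the saline mice and 9.53, 11.2 and 9.97 CPM in the PD mice, a log2 fold change of 1.76 (SE 0.16, adjusted p = 4.92e-06). Fcgr3, an Fc receptor of NK cells and macrophages, was at 115 ± 3.69 CPM in the saline mice and 523 ± 42.1 CPM in the PD mice, a log2 fold change of 2.19 (SE 0.073, adjusted p = 1.67e-09). Macrophage markers rose with Fcgr3, as given above, and their part in it was not tested. These 5 genes were still called higher with endothelial scaling, between 0.75 and 1.55.

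The lowest fold change was that of Ccr6, a chemokine receptor of B cells and type 17 cells, at 98.3, 111 and 97.7 CPM in the saline mice and 43.6, 45.3 and 45.4 CPM in the PD mice. Its log2 fold change was -1.19 (SE 0.075, adjusted p = 2.75e-07). Slamf1, a homophilic receptor of T and B cells, was at 49.8 ± 2.77 CPM in the saline mice and 25.8 ± 3.29 CPM in the PD mice with a log2 fold change of -0.95 (SE 0.10, adjusted p = 2.11e-05). Sh2d1a, the adaptor SAP that serves SLAM receptors in T and NK cells, was at 36.01, 32.7 and 31.2 CPM in the saline mice and 18.3, 19.2 and 21.5 CPM in the PD mice with a log2 fold change of -0.76 (SE 0.10, adjusted p = 8.99e-05). Cxcr5, the receptor that guides B cells and follicular helper T cells to follicles, was at 228 ± 10.4 CPM in the saline mice and 138 ± 3.49 CPM in the PD mice, a log2 fold change of -0.73 (SE 0.061, adjusted p = 2.79e-06). Trat1, an adaptor bound to the T cell receptor, was at 36.7, 48.3 and 43.6 CPM in the saline mice and 24.7, 29.1 and 28.2 CPM in the PD mice, a log2 fold change of -0.65 (SE 0.11, adjusted p = 0.000597). With pan-leukocyte scaling these 5 genes remained lower, between -0.89 and -0.36. B cell markers fell with Ccr6, Slamf1 and Cxcr5, as given above, and their part was not tested.

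**Figure D5:**
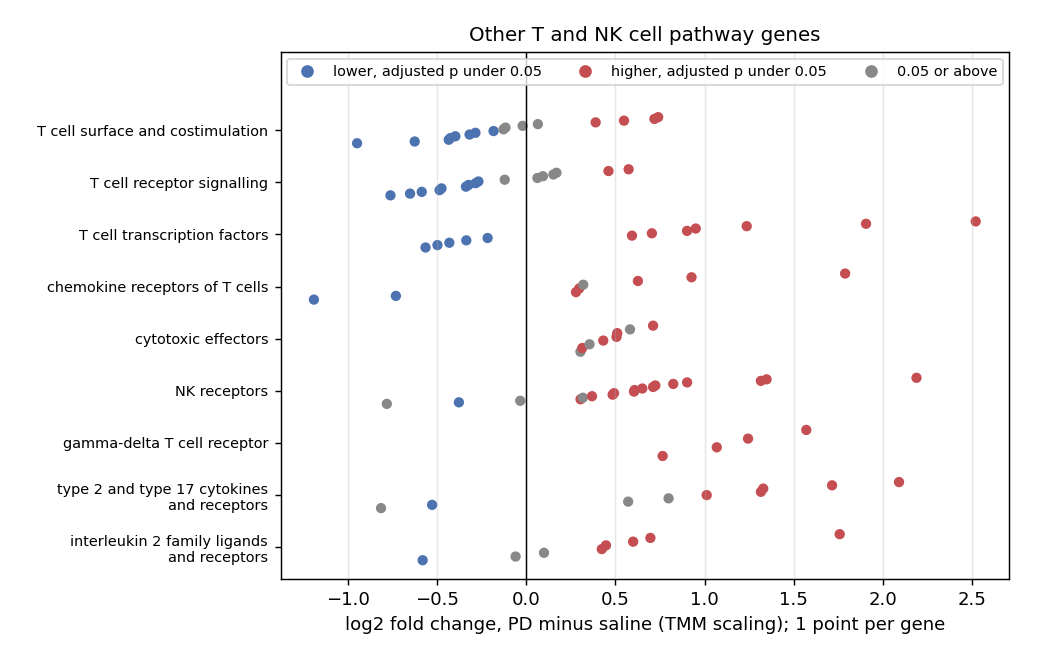
Log2 fold change, PD minus saline with TMM scaling, of the 99 further T and NK pathway genes tested, 1 point per gene in rows by list and coloured by the edgeR call. Points of T cell receptor signalling run from -0.76 to 0.57 and those of the gamma-delta constant genes from 0.77 to 1.57; under endothelial scaling 64 of all the points are called lower.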

How the data were processed

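RNA was sequenced from oligo(dT)-enriched libraries of sorted peritoneal cells, 3 from saline and 3 from PD mice. The authors deposited 1 table with raw read counts per gene and mouse, and with the FPKM that the authors computed. Its columns of group means, fold changes, p-values and FDR were not used, and the number of sample columns without a matching label was 0. The submitters' processing notes name fastp 0.18.0, Bowtie2 2.2.8, HISAT2, StringTie and RSEM. The genome build is not given in the sources used here. Positions come from GENCODE M21 on GRCm38, to which all 38 members matched, and promoter windows from RefSeq GRCm38.p6, for 28 members. Counted reads without molecular identifiers are not independent molecules.

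Counts were filtered with filterByExpr, scaled by TMM and tested with edgeR 4.0.16 (quasi-likelihood test, no covariate, R 4.3.3) over all genes, with Benjamini-Hochberg adjustment. Whether each library is a separate mouse rests on its label, and p-values measure the spread between these libraries. Replicates of a group differed by more than sampling noise. The members and lists were chosen with earlier results of these data known. All members are named, with the 6 called pathway genes of largest change in each direction at a mean of at least 1 CPM, of which 1 in each direction is not reported here, and Pecam1, Ptprc and Cd79a of the markers. The script was tested on simulated data. The replicate numbers of the groups did not pair the mice. Alternatives were DESeq2 1.42.0, limma-voom (limma 3.58.1), DESeq2 size factors, total counts, endothelial and pan-leukocyte scaling, no filter, a replicate block, other pseudocounts, each mouse left out and, added after seeing the data, other receptor chains in place of Cd3e.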

Additional observations from a re-analysis of the deposited data

How the results depend on the processing

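Scaling changed the results most. With endothelial scaling 10096 genes of all tested were lower and 1166 higher, 33 members lower and 2 higher, and 64 pathway genes lower and 11 higher. With pan-leukocyte scaling the counts were 1153 lower and 6898 higher over all genes, 5 and 21 for members, and 9 and 62 for pathway genes. Higher genes made up 52.9% of calls with TMM scaling, 10.4% with endothelial and 85.7% with pan-leukocyte scaling. The log2 fold change turned sign with endothelial scaling for Cd3e (-0.91), Cd8a (-0.84), Il7r (-0.91), Bcl11b (-0.88), Icos (-0.94), Ctla4 (-0.74), Il2ra (-0.25), Prf1 (-0.52), Nkg7 (-0.90), Ifng (-0.74), Klrb1c (-0.60), Ncr1 (-0.65), Eomes (-0.54), Tbx21 (-0.63), Gata3 (-0.88). It turned with pan-leukocyte scaling for Cd4 (0.25), Cd8b1 (0.13), Zap70 (0.26), Lat (0.081), Gzma (0.010), Klrd1 (0.26).

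With each mouse left out in turn, 11 to 14 members were lower and 6 to 9 higher. The sign turned for Cd3e (-5.0e-05 to 0.15), Bcl11b (-0.071 to 0.18), Icos (-0.013 to 0.090), Klrd1 (-0.17 to 0.12) and Gata3 (-0.0015 to 0.15), none of them called with all mice.

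Same-numbered mice of the groups correlated at 0.16, 0.057 and -0.23 over all genes tested, so the numbers did not pair them, and saline replicate 2 correlated best with PD replicate 3. With the replicate block 13 members were lower and 8 higher, the calls of Cd8b1 and Ncr1 being lost, and 7909 genes of all tested were called. Without the low-count filter Cd8b1 and Ncr1 lost their call, and with DESeq2, or with DESeq2 size factors in edgeR, Ncr1 did. With limma-voom or total counts each member kept its call. With pseudocounts of 0.1 and 1 CPM the ratio of Il7r to Cd3e, near 0, was -0.00011 and 0.00029, and the other 7 kept their sign. With each mouse left out the differences in Il7r to Cd3e ran from -0.15 to 0.13 and in Gata3 to Cd3e from -0.086 to 0.10, and the other 6 kept their sign. With the other receptor chains in place of Cd3e the 8 differences were 0.48 for Il7r, -0.047 for Foxp3, 0.15 for Gzma, 0.71 for Ncr1, 0.49 for Gata3, 1.44 for Il1rl1, and 0.28 and 0.80 for the chains to Ptprc and Cd79a, each moved by more than the spread between mice.

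Among the limits, 3 mice a group allow no exact p under 0.1. A gene at 3 counts stands at 0.110 to 0.138 CPM, and Il17a and Ifng rest on the fewest reads. Endothelial, leukocyte and other cell transcripts moved with treatment, and their part in the members' values was not tested. The labels give no batch or day of isolation, so none was examined.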

Other observations

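Gamma-delta T cell receptor genes were examined further after their values were seen. Trdc, the delta chain constant region, was at 27.4, 29.9 and 27.2 CPM in the saline mice and 58.9, 65.9 and 75.4 CPM in the PD mice, and its log2 fold change was 1.24 (SE 0.10, adjusted p = 1.93e-06) in edgeR's test, or 0.27 under endothelial scaling and 1.54 under pan-leukocyte scaling. Trgc1, a gamma chain constant region, was at 18.4, 19.9 and 17.8 CPM in the saline mice and 47.8, 57.3 and 61.7 CPM in the PD mice, and its log2 fold change was 1.57 (SE 0.11, adjusted p = 5.32e-07), or 0.60 under endothelial scaling and 1.87 under pan-leukocyte scaling. Trgc2 and Trgc4 had log2 fold changes of 0.77 and 1.07, which were -0.21 and 0.099 under endothelial scaling. Gamma chain constant genes resemble each other, so the split of reads between them is uncertain. Within each mouse, the log2 ratio of Trdc to Trac was -3.91, -3.92 and -3.94 in the saline mice and -2.32, -2.33 and -2.24 in the PD mice. The log2 ratio of Trgc1 to Trbc2 was -4.53, -4.37 and -4.45 in the saline mice and -2.55, -2.36 and -2.29 in the PD mice. Both ratios are independent of library scaling apart from the 0.5 CPM added to each level, were higher in every PD mouse, and were not tested because they were chosen after the values were seen.

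More ratios of members were computed in the same way, also without a test, and those to Cd3e rest on the 1 receptor chain that did not fall. Pdcd1 to Cd3e was -2.83, -2.59 and -2.87 in the saline mice and -1.19, -1.19 and -1.24 in the PD mice, a mean difference of 1.56. Il2rb to Cd3e was -0.056, -0.44 and -0.25 in the saline mice and 1.16, 1.08 and 0.93 in the PD mice, a difference of 1.30. Foxp3 to Il2ra, genes that regulatory T cells express together, was -0.89, -1.35 and -1.35 in the saline mice and -2.25, -2.36 and -2.46 in the PD mice, a mean difference of -1.16, and lower in every PD mouse. Cd8a to Cd8b1, the chains of the CD8 heterodimer, was -0.79, -0.83 and -0.87 in the saline mice and -0.48, -0.55 and -0.58 in the PD mice, higher in every PD mouse. Gzmb to Prf1 was -2.93, -3.22 and -3.33 in the saline mice and -2.32, -2.51 and -2.52 in the PD mice, and Trbc1 to Trbc2 was -0.56, -0.55 and -0.51 in the saline mice and -0.59, -0.63 and -0.63 in the PD mice.

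The deposited FPKM of Icos was at 19.5 ± 2.53 FPKM in saline mice and 17.4 ± 1.36 FPKM in PD mice (SD, n = 3), whereas its TMM-scaled level was at 39.7 ± 2.85 CPM in the saline mice and 40.6 ± 1.24 CPM in the PD mice, and the reason for the difference between the scales was not tested.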
